A study of Mus musculus with 10 samples.

Results

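The mitochondrial genome transcripts are the RNAs copied from chromosome MT, and every row that the deposited count tables place on that chromosome was taken, 37 of 49585 gene rows. They comprise 2 rRNA genes, 22 tRNA genes and 13 protein-coding genes, the gene content known for the mitochondrial DNA of mammals. Bulk RNA was sequenced in a mouse model of hepatocellular carcinoma with a triple knockout (TKO) of the Rb family, the genes for the retinoblastoma pocket proteins, with 10 samples in 5 groups of 2. Per the labels' protocols, liver or lesion cells were dissociated and sorted for YFP, a fluorescent protein that marks Cre recombination of the floxed alleles. The untagged Sox9 columns (n = 2) were taken as the Sox9-derived organoids, and they are set against the Ck19-derived organoids (n = 2).

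A further pair of columns carries both the name Sox9 and a TKO tag (n = 2), and is called TKO-tagged here. Only 1 label group is named for Sox9, and the column names do not settle which of the pairs it stands for, so both are given. The TKO-tagged pair was deposited in a table of its own, so differences between the tables and between the groups cannot be told apart. Sox9 encodes a transcription factor that marks ducts and progenitors in the liver, and Ck19 is the ductal keratin made from Krt19. No label gives the genotype of a single sample, the driver of Cre, the age or number of the animals, or whether replicates stem from different mice or cultures. The p-values below therefore measure only the spread between these libraries, which may be technical. The Epcam-negative, Epcam-high and Thy1-positive sorted cells were not analysed here.

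Mitochondrial DNA is a small circle transcribed in long strands from the heavy-strand and light-strand promoters. The strands are cut at the tRNAs that punctuate them, which frees the rRNAs and mRNAs. The mRNAs encode subunits of respiratory complexes I, III and IV and of ATP synthase, and the remaining subunits come from nuclear genes. Pieces of mitochondrial DNA are also found copied into nuclear chromosomes, and in the mouse a long copy lies on chromosome 1.

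Library totals, the fragments counted on any gene, were 36606008 and 33154972 in the Sox9-derived libraries, 53280136 and 59664959 in the TKO-tagged libraries, and 31883180 and 32747944 in the Ck19-derived libraries. Markers differed sharply between the pairs. The 8 biliary epithelial markers summed to 31661 and 27324 CPM (fragments scaled to a library total of 1000000) in the Sox9-derived libraries, 623 and 1203 CPM in the TKO-tagged libraries, and 14492 and 13997 CPM in the Ck19-derived libraries. The 10 hepatocyte markers summed to 285 and 633 CPM, 50631 and 34632 CPM, and 277 and 296 CPM in the same order of pairs. Krt19 stood at 0.619 and 1.61 CPM in the TKO-tagged pair, so its markers go against a duct-like culture. That pair also held erythroid (301 and 2538 CPM), mesenchymal (387 and 228 CPM) and endothelial (92.5 and 59.0 CPM) marker RNA, each list below 3 CPM in the other 4 libraries. Of the 6 erythroid markers, 6 and 4 were at 0 in the Ck19-derived libraries. The 8 myeloid markers summed to 1354 and 1153 CPM in the Sox9-derived libraries, 1244 and 935 CPM in the TKO-tagged libraries, and 1072 and 1104 CPM in the Ck19-derived libraries. Most of the sum in the organoids was Cd14, at 1336 and 1126 CPM in the Sox9-derived and 987 and 1057 CPM in the Ck19-derived libraries, against 492 and 256 CPM in the TKO-tagged libraries. The macrophage lysozyme gene Lyz2 had 0.109 and 0.211 CPM in the Sox9-derived libraries, 535 and 554 CPM in the TKO-tagged libraries, and 0.157 and 0.183 CPM in the Ck19-derived libraries. Of the 8 myeloid markers, edgeR called 6 higher and 0 lower in the TKO-tagged than in the Ck19-derived libraries. Of all 17938 genes tested there, 15% were called higher and 14% lower. The female-specific RNA Xist had 1 and 1 fragments in the Sox9-derived pair, 2 and 1 in the TKO-tagged pair, and 1923 and 1869 in the Ck19-derived pair. The Y-linked gene Eif2s3y had 3383 and 2615, 3770 and 3713, and 3 and 3 fragments in the same order. Sex and group thus cannot be told apart in any comparison below.

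Several mitochondrial genes have a near-identical copy on chromosome 1. It was read here from 7 annotated transcripts on the minus strand at chr1:24611535-24616197 (GRCm38). They match chromosome MT from the last part of mt-Co1 (the catalytic core subunit of complex IV) to the first part of mt-Nd4 (a membrane subunit of complex I). Of the 7, 5 were identical to their mitochondrial gene over the whole length of the copy, which was 681 bases for mt-Co2, 678 for mt-Atp6, 783 for mt-Co3, 294 for mt-Nd4l and 876 for mt-Nd4. The copy of mt-Nd3 (345 bases) differed at T3C, and that of mt-Co1 (492 bases, in the last part of the gene) at T1056A, C1057T, A1059G, A1060G, C1062A and A1066T. Positions are counted from 1 at the gene's first base, with the mitochondrial base first. The stretches below, from GENCODE transcripts of GRCm38, show how alike the places are over the length of a short read. The first is an identical pair at the start of mt-Co2, the next holds the only difference in mt-Nd3, and the last is the edge of the copy in mt-Co1. Capitals mark bases that differ within a pair.
mt-Co2 (chrMT:7013-7072, plus strand): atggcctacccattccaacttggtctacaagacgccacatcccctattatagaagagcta
Gm28661 (chr1:24615506-24615565, minus strand): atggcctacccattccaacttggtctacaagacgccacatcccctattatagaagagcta
mt-Nd3 (chrMT:9459-9518, plus strand): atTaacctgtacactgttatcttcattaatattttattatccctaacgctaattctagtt
Gm28438 (chr1:24613060-24613119, minus strand): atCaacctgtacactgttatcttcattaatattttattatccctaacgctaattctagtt
mt-Co1 (chrMT:6381-6440, plus strand): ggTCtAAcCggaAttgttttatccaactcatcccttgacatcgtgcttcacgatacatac
Gm29216 (chr1:24616138-24616197, minus strand): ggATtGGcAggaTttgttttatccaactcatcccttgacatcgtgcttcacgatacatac

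The share of a gene's 50-base windows that also occur in another annotated transcript was 100% for mt-Co2, 99.9% for mt-Co3, 99.5% for mt-Atp6, 98.8% for mt-Nd4l and 98.0% for mt-Nd3. It was 62.2% for mt-Nd4, 51.1% for mt-Co1, 8.19% for mt-Nd2, 7.61% for mt-Nd5 and 1.04% for mt-Rnr2. No window of mt-Rnr1, mt-Nd1, mt-Nd6, mt-Cytb or mt-Atp8 was found in another transcript. mt-Atp8 lies between mt-Co2 and mt-Atp6, and 43 of its 204 bases are shared with mt-Atp6. Only annotated transcripts were searched, so the bases between the chromosome 1 copies of mt-Co2 and mt-Atp6 were not. The authors kept fragments with a mapping quality of at least 10, per the file headers, a setting that leaves out fragments an aligner cannot place. It left out 33.2% and 34.4% of all fragments in the Sox9-derived libraries. The values were 40.9% and 37.1% in the TKO-tagged libraries, and 40.0% and 38.8% in the Ck19-derived libraries. The part of this setting in the levels and shares below was not tested.

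Counts on the copies followed those on the genes. For mt-Co3 the gene had 744 and 592 fragments in the Sox9-derived libraries, 5397 and 3852 in the TKO-tagged libraries, and 541 and 803 in the Ck19-derived libraries. Its copy Gm28437 had 738 and 597, 5079 and 3646, and 513 and 728 fragments in the same libraries. The ratio of gene to copy was thus near 1 in all 6 libraries, from 0.992 to 1.10. Over mt-Co2, mt-Atp6, mt-Co3, mt-Nd3 and mt-Nd4l the ratio ran from 0.119 to 1.89. The 7 copies together held 0.00632% and 0.00550% of the library total in the Sox9-derived libraries, 0.0298% and 0.0173% in the TKO-tagged libraries, and 0.00645% and 0.00890% in the Ck19-derived libraries. Which of these fragments came from chromosome 1 cannot be told from the counts.

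**Figure D1:**
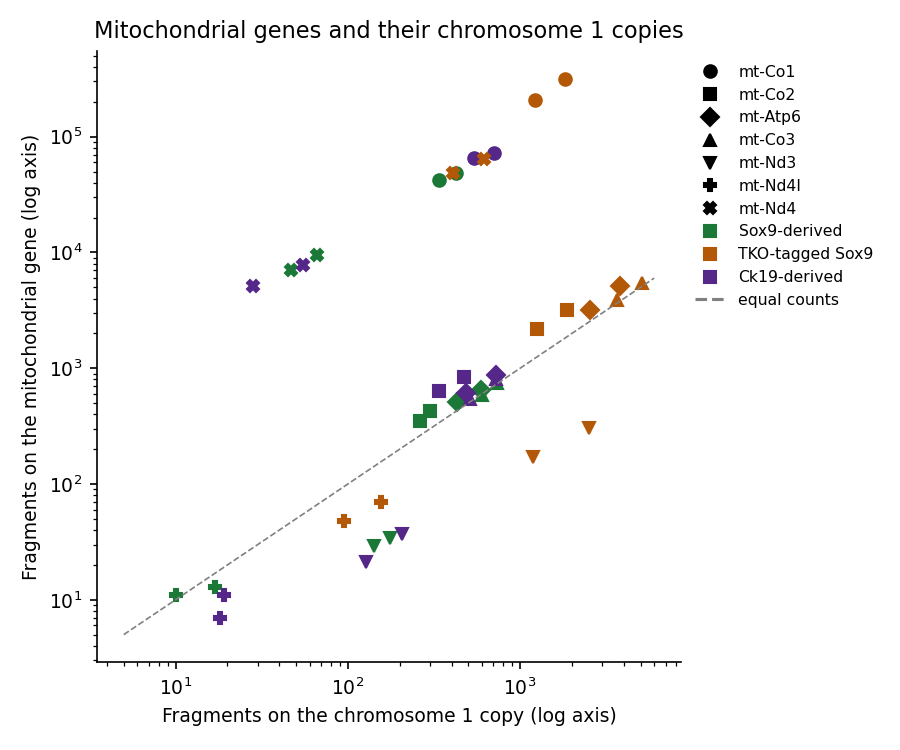
Fragments on 7 mitochondrial genes (vertical log axis) against fragments on their annotated chromosome 1 copies (horizontal log axis), 1 point per library, coloured by pair, with a dashed line at equal counts. mt-Co3 lies on the line in every library, mt-Nd3 lies below it, and mt-Co1 and mt-Nd4, which extend beyond the copy, lie far above it.

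Chromosome MT took a like share of the Sox9-derived and Ck19-derived libraries and a larger share of the TKO-tagged ones. The 37 genes held 260182 and 220310 fragments in the Sox9-derived libraries, 1483119 and 955016 in the TKO-tagged libraries, and 231981 and 260030 in the Ck19-derived libraries. As a percent of the library total this was 0.711% and 0.664%, 2.78% and 1.60%, and 0.728% and 0.794% in the same order. Clopper-Pearson 95% intervals, which cover counting error only, reached at most 0.00442 percentage points to either side. The libraries within each pair thus differed by more than counting error.

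In the Sox9-derived pair the share averaged 0.688% ± 0.0327, against 0.761% ± 0.0470 in the Ck19-derived pair (SD, n = 2 each), a difference of −0.0732 percentage points. The groups did not overlap, with p = 0.333 in a two-sided exact permutation test, the smallest p that 2 against 2 allows. The direction turned to 0.00429 points when the share was taken of all sequenced fragments in place of those assigned to genes. Fragments assigned to genes made up 59.7% and 58.4% of all fragments in the Sox9-derived pair and 52.1% and 53.5% in the Ck19-derived pair. It also turned, to 0.0108 points, when only the 8 rRNA and protein-coding genes with under 10% of their windows elsewhere were counted. The direction of the difference between the organoid pairs thus depends on what is counted.

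The TKO-tagged pair averaged 2.19% ± 0.837, against 0.761% ± 0.0470 in the Ck19-derived pair (SD, n = 2 each), a ratio of 2.88. Both TKO-tagged libraries lay above both Ck19-derived ones (two-sided exact permutation p = 0.333, the smallest possible). The TKO-tagged libraries also stood apart from each other, by more than the whole range of the other 4 libraries. Hepatocyte, erythroid, mesenchymal and endothelial marker RNA was high in this pair, as given above. The summed myeloid markers were not, with Lyz2 higher and Cd14 lower than in the organoids. The part of these markers in the mitochondrial share was not tested. In bulk RNA, a change in the number of cells of a type and a change in the RNA of each cell cannot be told apart. The TKO-tagged and Sox9-derived pairs share the Ck19-derived libraries as their comparison, so the 2 sets of results are not independent.

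**Figure D2:**
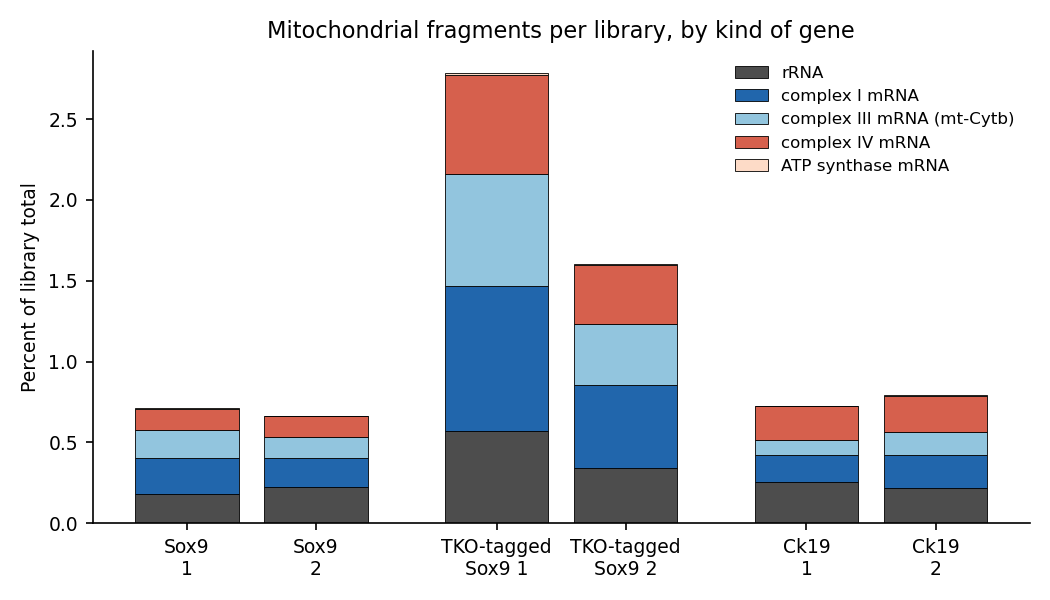
Percent of each library's assigned fragments on chromosome MT, stacked by kind of gene, for 6 libraries in pairs; tRNA genes are too few to draw. The bars reach 0.711% and 0.664% for Sox9-derived, 2.78% and 1.60% for TKO-tagged, and 0.728% and 0.794% for Ck19-derived libraries.

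Levels of the 15 rRNA and protein-coding genes spanned a wide range within each library. Per kilobase of gene, mt-Cytb, mt-Nd1, mt-Rnr2 and mt-Co1 filled the 4 highest places in all 6 libraries. mt-Co2, mt-Atp6, mt-Co3, mt-Atp8, mt-Nd3 and mt-Nd4l filled places 10 to 15 in all 6, and all of them lie within the stretch that the chromosome 1 copy spans. Together these 6 made up 0.729% and 0.692% of chromosome MT fragments in the Sox9-derived libraries, 0.970% and 1.00% in the TKO-tagged libraries, and 0.792% and 0.998% in the Ck19-derived libraries. The fall along the genome was steep, since mt-Co1 had 50.5 and 53.1 times the fragments per kilobase of its neighbour mt-Co2 in the Sox9-derived libraries, 44.4 and 42.5 times in the TKO-tagged libraries, and 45.8 and 38.6 times in the Ck19-derived libraries.

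**Figure D3:**
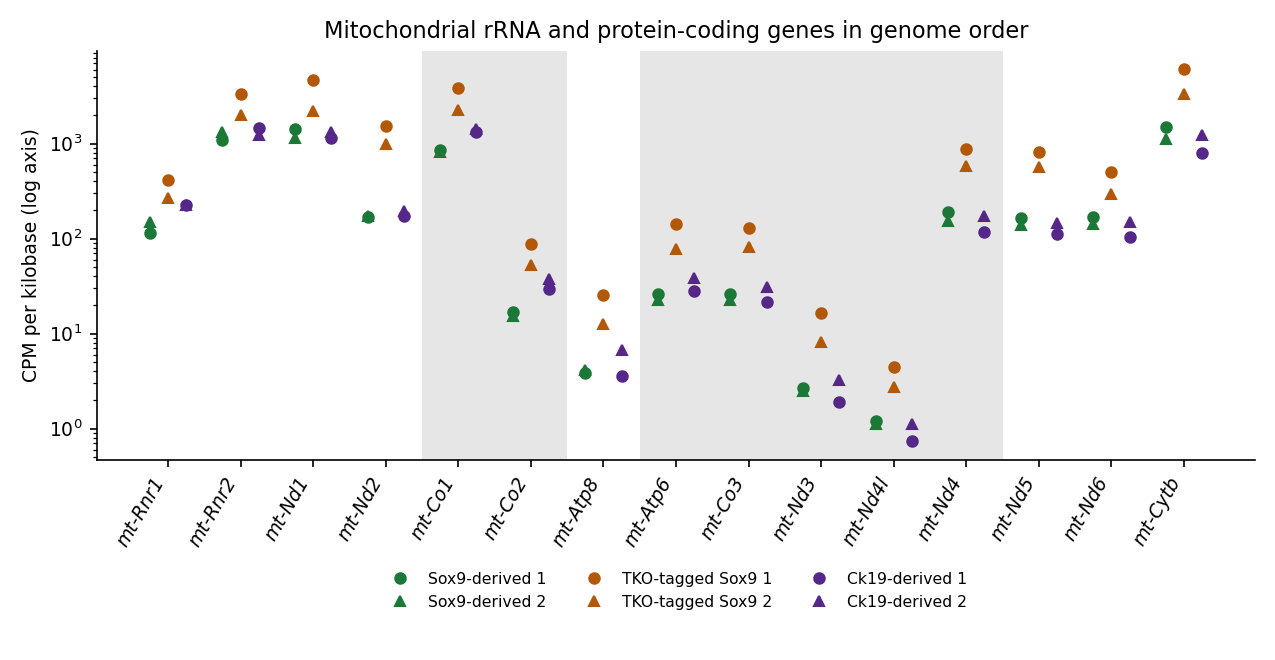
CPM per kilobase (log axis) of the 15 rRNA and protein-coding genes in genome order, 1 point per library. Grey bands mark genes with more than 10% of their 50-base windows in another annotated transcript; mt-Co2 to mt-Nd4l lie far below their neighbours in every library, and the TKO-tagged points lie above the Ck19-derived points for all 15 genes.

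The rRNAs, which form the core of the mitochondrial ribosome, made up 25.6% and 33.6% of chromosome MT fragments in the Sox9-derived libraries, 20.5% and 21.2% in the TKO-tagged libraries, and 35.0% and 27.5% in the Ck19-derived libraries. The organoid pairs overlapped, with a difference of −1.69 percentage points (two-sided exact permutation p = 0.667). The TKO-tagged pair lay below the Ck19-derived pair by 10.4 points on average (exact permutation p = 0.333, the smallest possible). Whether rRNA was removed or polyadenylated RNA selected when the libraries were made is not given in the sources used here.

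mt-Rnr1, the 12S rRNA of the small ribosomal subunit, stood at 109.8 and 142 CPM in the Sox9-derived libraries, 396 and 257 CPM in the TKO-tagged libraries, and 216 and 216 CPM in the Ck19-derived libraries. The Sox9-derived libraries were the lowest and the TKO-tagged ones the highest, with no overlap. mt-Rnr2, the 16S rRNA of the large subunit, stood at 1709 and 2088 CPM, 5296 and 3142 CPM, and 2328 and 1971 CPM in the same order. Its Sox9-derived and Ck19-derived values overlapped. Per kilobase, mt-Rnr2 stood at 9.40 and 8.89 times mt-Rnr1 in the Sox9-derived libraries, 8.06 and 7.37 times in the TKO-tagged libraries, and 6.50 and 5.50 times in the Ck19-derived libraries. The Ck19-derived pair was the lowest of the pairs in this ratio.

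Among the mRNAs, the complexes took different shares in the Ck19-derived organoids than in the other pairs. The 7 complex I genes made up 41.6% and 41.4% of mitochondrial mRNA fragments in the Sox9-derived libraries, 40.6% and 40.7% in the TKO-tagged libraries, and 35.7% and 35.7% in the Ck19-derived libraries. Complex IV genes made up 25.6% and 29.3%, 27.7% and 28.6%, and 44.6% and 39.5% in the same order. mt-Cytb, the only complex III gene of the mitochondrial DNA, made up 32.4% and 28.9%, 31.3% and 30.3%, and 19.3% and 24.3%. For complex I, the libraries of a pair lay closer to each other than to any library of another pair.

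Sox9-derived libraries thus exceeded Ck19-derived libraries by 5.81 percentage points for complex I and by 8.88 points for complex III, and fell below them by 14.6 points for complex IV (−14.6). TKO-tagged libraries exceeded Ck19-derived libraries by 4.95 and 8.96 points and lay 13.9 points below for complex IV (−13.9). In none of these 6 comparisons did the groups overlap, and each had a two-sided exact permutation p of 0.333, the smallest that 2 against 2 allows. The shares are parts of the same total and all are set against the same Ck19-derived libraries, so these comparisons are not independent. Complex IV here is almost wholly mt-Co1, of which 51.1% of windows occur elsewhere. Leaving out the genes that have 10% or more of their windows elsewhere leaves no complex IV gene. The complex I share was then below that of the Ck19-derived pair in both other pairs. The difference was −5.08 points for the Sox9-derived pair and −6.51 points for the TKO-tagged pair. The complex I excess thus holds only against a total that includes mt-Co1.

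**Figure D4:**
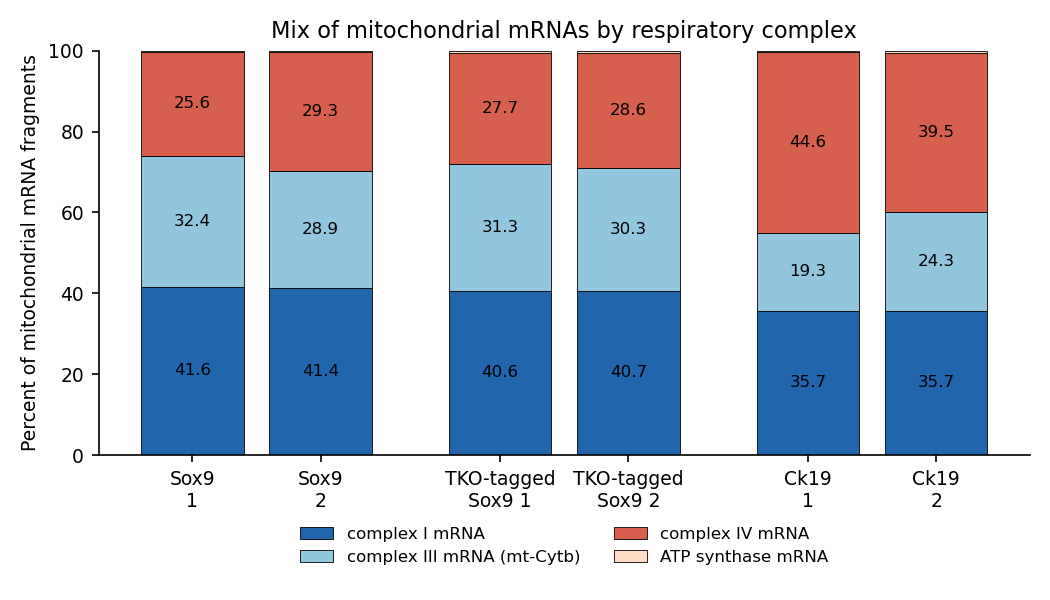
Percent of mitochondrial mRNA fragments from genes of each respiratory complex in 6 libraries (values printed in the bars; ATP synthase genes hold 0.353% to 0.485%). Complex IV takes 44.6% and 39.5% in the Ck19-derived libraries, more than in the 4 other libraries.

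Of the complex I genes, mt-Nd1, a core membrane subunit near the quinone site, was the most abundant. It stood at 1371 and 1106 CPM in the Sox9-derived libraries, 4435 and 2108 CPM in the TKO-tagged libraries, and 1085 and 1262 CPM in the Ck19-derived libraries. The organoid pairs overlapped and the TKO-tagged libraries lay above both. mt-Nd2, a proton-pumping membrane subunit, stood at 177 and 178 CPM, 1590 and 1028 CPM, and 181 and 203 CPM in the same order. The organoid pairs lay close together, and the TKO-tagged libraries far above them. The ratio of mt-Nd1 to mt-Nd2 per kilobase was 8.42 and 6.74 in the Sox9-derived libraries, 3.03 and 2.22 in the TKO-tagged libraries, and 6.51 and 6.75 in the Ck19-derived libraries.

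mt-Nd4 and mt-Nd5, the other large proton-pumping subunits, had like counts per kilobase in every library. mt-Nd4 had 262 and 212 CPM in the Sox9-derived libraries, 1197 and 807 CPM in the TKO-tagged libraries, and 162 and 236 CPM in the Ck19-derived libraries. mt-Nd5 had 301 and 254 CPM, 1499 and 1026 CPM, and 202 and 269 CPM in the same order. Their ratio per kilobase kept to a narrow range, from 1.04 to 1.16 over the 6 libraries. Of the windows of mt-Nd4, 62.2% occur in another transcript, against 7.61% for mt-Nd5, and the part of this in their ratio was not tested. mt-Nd6, the only mRNA encoded on the light-strand side, had 88.3 and 73.7 CPM, 260.8 and 154 CPM, and 53.8 and 77.3 CPM. Per kilobase, mt-Nd6 stood level with mt-Nd5 in the organoids (1.03 and 1.02 Sox9-derived, 0.933 and 1.01 Ck19-derived) but at 0.611 and 0.528 of it in the TKO-tagged libraries. Counting ignored strand, so fragments of the light-strand genes cannot be told apart from heavy-strand RNA that crosses them.

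The small complex I genes of the copied stretch were barely counted. mt-Nd3 had 34 and 29 fragments in the Sox9-derived libraries, 302 and 171 in the TKO-tagged libraries, and 21 and 37 in the Ck19-derived libraries. mt-Nd4l had 13 and 11, 70 and 48, and 7 and 11 fragments in the same order. Both genes encode membrane subunits of complex I. The organoid pairs overlapped for mt-Nd3, and for mt-Nd4l a library of each pair had 11 fragments.

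mt-Cytb, the cytochrome b core of complex III, stood at 1715 and 1276 CPM in the Sox9-derived libraries, 6924 and 3815 CPM in the TKO-tagged libraries, and 910.3 and 1397 CPM in the Ck19-derived libraries. mt-Co1 stood at 1320 and 1265 CPM, 5965 and 3506 CPM, and 2070 and 2215 CPM in the same order. The order of these genes by counts per kilobase differed between the pairs. Of the windows of mt-Co1, 51.1% occur in another transcript, against 0% for mt-Cytb, and the part of this in their order was not tested. Per kilobase, mt-Cytb was 1.75 and 1.36 times mt-Co1 in the Sox9-derived libraries and 1.57 and 1.47 times in the TKO-tagged libraries, but 0.594 and 0.851 times in the Ck19-derived libraries. As a share of chromosome MT fragments, mt-Co1 held 18.6% and 19.0%, 21.4% and 21.9%, and 28.5% and 27.9% in that order of pairs, close within each pair and without overlap between them.

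The rest of complex IV and the ATP synthase genes lie within the copied stretch. mt-Co2, which binds cytochrome c, had 11.6 and 10.6 CPM in the Sox9-derived libraries, 59.5 and 36.5 CPM in the TKO-tagged libraries, and 20.0 and 25.4 CPM in the Ck19-derived libraries. mt-Co3, a core subunit beside mt-Co1, had 20.3 and 17.9 CPM, 101 and 64.6 CPM, and 17.0 and 24.5 CPM. For mt-Co2 the organoid pairs did not overlap, and for mt-Co3 they did. mt-Atp6, part of the proton channel of ATP synthase, had 17.9 and 15.5 CPM, 97.0 and 53.2 CPM, and 19.1 and 26.4 CPM. mt-Atp8, a small membrane subunit of the same enzyme, had 29 and 28 fragments in the Sox9-derived libraries, 280 and 154 in the TKO-tagged libraries, and 23 and 45 in the Ck19-derived libraries.

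The tRNA genes, 59 to 75 bases long, were nearly absent from the counts. Of the 22, 11 had 0 fragments in all 6 libraries. A count of 0 allows up to 3 fragments, which is 0.0503 to 0.0941 CPM depending on the library. The tRNA total was 127 and 150 fragments in the Sox9-derived libraries, 126 and 95 in the TKO-tagged libraries, and 299 and 502 in the Ck19-derived libraries. As a share of chromosome MT fragments this was 0.0488% and 0.0681%, 0.00850% and 0.00995%, and 0.129% and 0.193%, lowest in the TKO-tagged pair and highest in the Ck19-derived pair without overlap. The 8 tRNA genes of the light-strand side took 97.6% to 99.0% of these fragments.

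Most tRNA fragments fell on a pair of genes, mt-Tp for proline and mt-Tq for glutamine, which are printed from GENCODE with the anticodon in capitals to show which tRNAs these counts stand for.
mt-Tp (chrMT:15356-15422, minus strand): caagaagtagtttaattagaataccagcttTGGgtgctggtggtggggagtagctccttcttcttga
mt-Tq (chrMT:3772-3842, minus strand): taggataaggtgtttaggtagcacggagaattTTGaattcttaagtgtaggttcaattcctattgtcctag
mt-Tp had 81 and 41 fragments in the Sox9-derived libraries, 70 and 63 in the TKO-tagged libraries, and 179 and 297 in the Ck19-derived libraries. mt-Tq had 35 and 91, 39 and 23, and 105 and 177 fragments in the same order. Both were highest in the Ck19-derived pair without overlap. The other 20 tRNA genes had at most 10 fragments each in any library. As the counting ignored strand, heavy-strand RNA that crosses these genes may be counted with them, and how much of it was not tested.

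Across all genes, edgeR's quasi-likelihood test called 95 of 16653 genes between Sox9-derived and Ck19-derived organoids, 0.186% of genes called higher and 0.384% called lower with a threshold of 0.05 on the Benjamini-Hochberg adjusted p. Of the 37 mitochondrial genes, 17 passed the count filter and 0 were called, while 4 had an unadjusted p below 0.05 and DESeq2 called 4. DESeq2 called 9.08% of all genes, against 0.570% by edgeR. These 17 are the 15 rRNA and protein-coding genes with mt-Tp and mt-Tq, and the other 20 tRNA genes did not pass. The lowest adjusted p was 0.113, for mt-Co1 (log2 fold change −0.73, SE 0.14, edgeR). mt-Rnr1 (−0.78, SE 0.20), mt-Co2 (−1.03, SE 0.28) and mt-Tp (−2.08, SE 0.55) followed, with adjusted p of 0.162, 0.174 and 0.171 by edgeR. The groups did not overlap on TMM-scaled CPM for 1 of the 17 in the higher direction (mt-Nd4l, and 0 on library totals), against 24.8% of all genes, and for 7 in the lower direction, against 26.2% of all genes. The median log2 fold change was −0.12 for the 17 and 0.01 for all genes tested.

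Set against the Ck19-derived organoids, the TKO-tagged libraries had more of every mitochondrial rRNA and mRNA. edgeR called 13 of the 17 genes higher and 0 lower, where 15% of all 17938 genes tested were called higher and 14% lower. The 4 not called were mt-Atp8, mt-Nd4l, mt-Tq and mt-Tp, with adjusted p of 0.0578, 0.0606, 0.0932 and 0.0827 by edgeR. The groups did not overlap for any of the 17, with 15 higher and 2 (mt-Tp and mt-Tq) lower, against 32.4% and 38.2% of all genes. All 13 calls were lost when either Ck19-derived library was left out, where the share of all genes called fell to 4.73% and 4.53%, against 28.9% with all 4 libraries. The median log2 fold change of the mitochondrial genes was then 2.24 without Ck19-derived replicate 1 and 2.68 without replicate 2.

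The size of the change differed between genes. mt-Nd2 changed most, with a log2 fold change of 3.54 (SE 0.37, adjusted p = 0.00478, edgeR), followed by mt-Nd5 at 3.19 (SE 0.37, adjusted p = 0.00595), mt-Nd4 at 3.10 (adjusted p = 0.00706), mt-Nd3 at 3.02 (adjusted p = 0.0391) and mt-Cytb at 2.99 (adjusted p = 0.0150). mt-Co1 rose by 1.91 (adjusted p = 0.0277), mt-Rnr2 by 1.74 (adjusted p = 0.0362) and mt-Rnr1 by 1.36 (SE 0.32, adjusted p = 0.0333). As ratios of mean CPM on library totals, mt-Nd2 stood at 6.83 times, mt-Cytb at 4.66 times, mt-Nd1 at 2.79 times, mt-Co1 at 2.21 times and mt-Rnr1 at 1.51 times its Ck19-derived level. mt-Tp and mt-Tq were 0.161 and 0.128 times theirs.

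The scaling matters for the size of these values. TMM factors were 0.750 and 0.788 in the TKO-tagged libraries and 1.28 and 1.32 in the Ck19-derived libraries. On library totals alone, the median log2 fold change of all genes moved to −0.82, against −0.07 with TMM. The median of the 17 mitochondrial genes was then 1.72, against 2.495 with TMM. The 15 rRNA and protein-coding genes remained higher without overlap, while edgeR called 8 of them higher and the 2 tRNA genes lower, in a fit that called 39.7% of all genes.

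**Figure D5:**
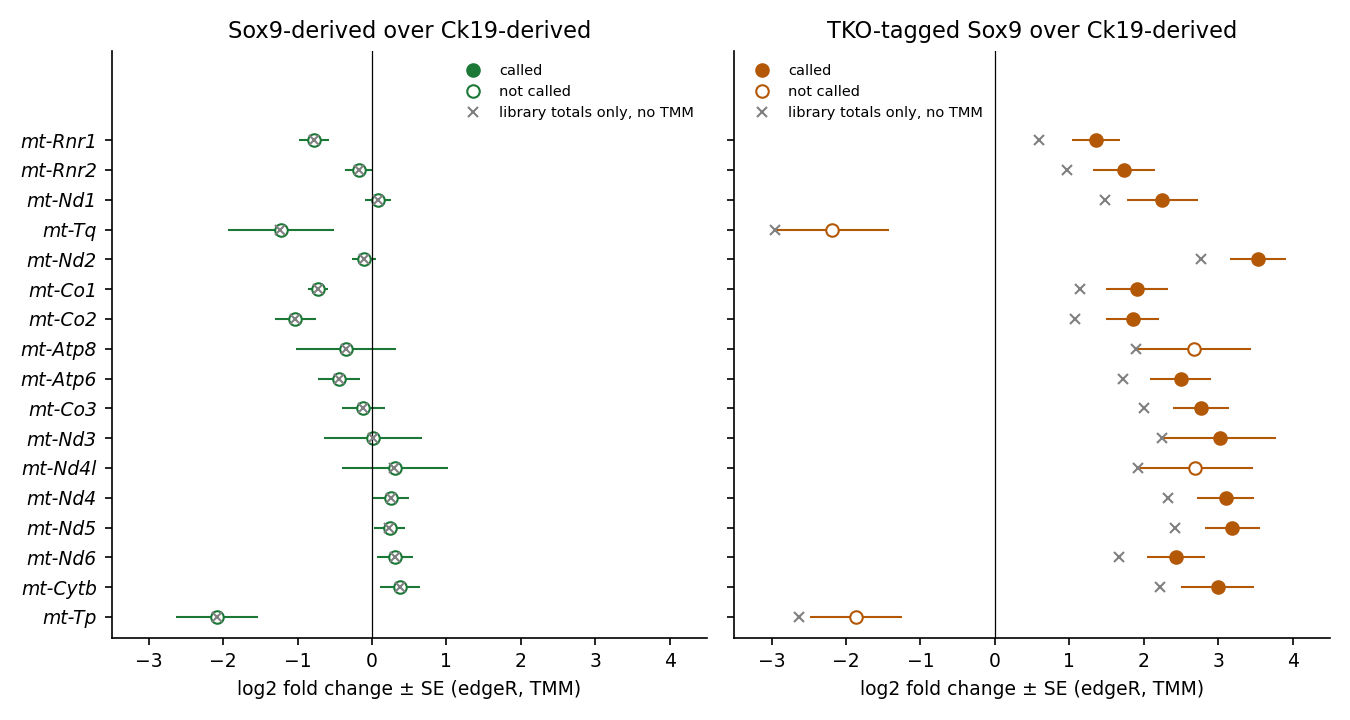
Log2 fold change ± SE (edgeR with TMM scaling) of the 17 tested mitochondrial genes in genome order, Sox9-derived over Ck19-derived at left and TKO-tagged over Ck19-derived at right. Filled points passed an adjusted p of 0.05 (0 at left, 13 at right), and grey crosses give the value on library totals alone.

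The nuclear genes that build the same enzymes were compared in the same fits. Of 77 nuclear subunits of complexes I to V, edgeR called 0 between Sox9-derived and Ck19-derived organoids, as did DESeq2 and limma-voom, with 2 at an unadjusted p below 0.05 in edgeR. Of all genes tested, edgeR called 0.570%, DESeq2 9.08% and limma-voom 0.558%. The median log2 fold change of the 77 was −0.09, beside 0.01 for all genes. The highest by mean CPM over the 6 libraries was Atp5b, the catalytic beta subunit of ATP synthase, at 2564 and 2757 CPM in the Sox9-derived libraries and 2322 and 2610.2 CPM in the Ck19-derived libraries (adjusted p = 0.756, edgeR). Cox4i1, a complex IV subunit, had 569 and 672 CPM in the Sox9-derived libraries and 660.0 and 821 CPM in the Ck19-derived libraries, and the groups overlapped (adjusted p = 0.572, edgeR). The genes with the highest such mean in the other complexes, Ndufb9 (complex I), Sdhd (complex II) and Uqcrc1 (complex III), had log2 fold changes of −0.20, 0.21 and 0.04, with adjusted p of 0.604, 0.709 and 0.933 by edgeR.

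Between TKO-tagged and Ck19-derived libraries, 36 of the 77 nuclear subunits were called higher and 0 lower by edgeR, with a median log2 fold change of 0.94, where 15% of all genes were called higher and 14% lower. On library totals the median was 0.18, and 5 were called higher and 2 lower, in a fit that called 39.7% of all genes. The 36 calls comprised 16 of 36 complex I genes, 2 of 4 complex II genes, 4 of 9 complex III genes, 4 of 11 complex IV genes and 10 of 17 ATP synthase genes. No call among them held when either Ck19-derived library was left out, with medians of 0.82 without replicate 1 and 1.03 without replicate 2 and the fall in calls over all genes given above. In the list of complex I, Ndufa1 had 275 and 209 CPM in the TKO-tagged libraries, against 101 and 146 CPM in the Ck19-derived libraries (log2 fold change 1.74, SE 0.31, adjusted p = 0.0181, edgeR). Ndufb5 and Ndufb9 followed at 1.67 and 1.52. In complex II, which has no mitochondrial gene, the iron-sulfur subunit Sdhb and the membrane anchor Sdhd stood at 1.24 and 1.23.

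Complex III was led by Cyc1, the cytochrome c1 subunit, with 1359 and 805 CPM in the TKO-tagged libraries, against 442 and 539 CPM in the Ck19-derived libraries (log2 fold change 1.91, SE 0.38, adjusted p = 0.0228, edgeR). Uqcrq and the Rieske iron-sulfur protein Uqcrfs1 stood at 1.77 and 1.496. In complex IV the called genes with the largest changes were Ndufa4 at 1.81, Cox6c at 1.34 and Cox5a at 1.28. In ATP synthase, Atp5g3, a gene for the membrane ring, had 1390.2 and 1002 CPM in the TKO-tagged libraries, against 402 and 526 CPM in the Ck19-derived libraries (log2 fold change 2.13, SE 0.34, adjusted p = 0.0135, edgeR). Atp5g1, another gene for that ring, and Atp5f1, of the stalk, stood at 1.85 and 1.62. Many of these nuclear genes have processed copies elsewhere in the genome, so the limit described above for copied mitochondrial genes may hold for them too, which was not tested.

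The balance between the genomes does not depend on the scaling. Summed CPM of the 13 mitochondrial mRNAs was 0.266 and 0.192 of the summed CPM of the 77 nuclear subunits in the Sox9-derived libraries, 0.737 and 0.464 in the TKO-tagged libraries, and 0.236 and 0.234 in the Ck19-derived libraries. The organoid pairs overlapped, and both TKO-tagged libraries lay above all others. The mitochondrial sum was 5286 and 4411 CPM in the Sox9-derived libraries, 22141 and 12605 CPM in the TKO-tagged libraries, and 4722 and 5738 CPM in the Ck19-derived libraries. The nuclear sum was 19840.2 and 23022 CPM, 30039.6 and 27157 CPM, and 20013 and 24483 CPM in the same order. Between TKO-tagged and Ck19-derived libraries the mitochondrial sum thus differed more than the nuclear one.

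Nuclear genes that copy and mature mitochondrial RNA were read from the same fits. Of 22 genes for mitochondrial DNA replication and transcription, edgeR called 0 between the organoid pairs, where 0.570% of all genes were called. Between TKO-tagged and Ck19-derived libraries it called 1 of the 22, where 28.9% of all genes were called. That gene was Tfb1m, which methylates the 12S rRNA, with 17.9 and 23.7 CPM in the TKO-tagged libraries, against 11.7 and 16.2 CPM in the Ck19-derived libraries (log2 fold change 1.33, SE 0.35, adjusted p = 0.0452, edgeR). The call was lost on library totals. Ssbp1, the single-stranded DNA binding protein and the list's highest by mean CPM over the 6 libraries, had 99.2 and 90.2 CPM in the Sox9-derived libraries and 78.2 and 81.5 CPM in the Ck19-derived libraries, and was not called (adjusted p = 0.515, edgeR). The summed level of the 22 genes was 651 and 622 CPM in the Sox9-derived libraries, 411 and 501 CPM in the TKO-tagged libraries, and 605 and 676 CPM in the Ck19-derived libraries. The TKO-tagged pair was thus the lowest on library totals in these genes, while it held the largest mitochondrial share. With TMM the median log2 fold change of the list over the Ck19-derived pair was 0.30, and on library totals it was −0.44.

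Of 31 genes for mitochondrial RNA processing, stability and decay, edgeR called 0 between the organoid pairs, where 0.570% of all genes were called. Hsd17b10, a subunit of mitochondrial RNase P and the most abundant of the 31, had 201 and 229 CPM in the Sox9-derived libraries and 260.0 and 290.0 CPM in the Ck19-derived libraries (adjusted p = 0.385, edgeR). Between TKO-tagged and Ck19-derived libraries 3 were called higher and 2 lower, beside 15% and 14% of all genes. Lrpprc, which stabilises mitochondrial mRNAs, had 46.9 and 29.2 CPM in the TKO-tagged libraries, against 12.1 and 18.8 CPM in the Ck19-derived libraries (log2 fold change 2.07, SE 0.41, adjusted p = 0.0218, edgeR). Gtpbp3, a tRNA-modifying enzyme, stood at 2.28 and Mtpap, the mitochondrial poly(A) polymerase, at 1.17. Mrm1, a methyltransferase of the 16S rRNA, had 1.54 and 3.37 CPM in the TKO-tagged libraries, against 25.2 and 26.7 CPM in the Ck19-derived libraries (log2 fold change −2.65, SE 0.52, adjusted p = 0.0214, edgeR). Nsun2, an RNA cytosine methyltransferase, stood at −1.23. Mtpap and Nsun2 are named because all 5 calls are given, a choice made after their values were seen. All 5 kept their direction on library totals.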

How the data were processed

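Per the file headers, the authors made the deposited counts, which are raw fragments per gene, by running featureCounts (v1.5.0-p3) on the gene models of Ensembl 87, build GRCm38, without using strand and from primary alignments with both ends mapped and a mapping quality of at least 10. Per the submitters' processing notes, STAR 2.5.4b was among the tools. Columns were tied to samples by name, and 4 count columns that matched no label were not used. The deposited counts were not normalized by the authors.

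CPM scales fragments to a library total of 1000000 over 49585 genes, of which 49326 had a symbol in a GENCODE table. Assignment rates were 51.5% to 59.7%. The whole table was tested with edgeR 4.0.16 in R 4.3.3 (filterByExpr with a minimum count of 10, TMM, quasi-likelihood test, Benjamini-Hochberg adjusted p, threshold 0.05, two-sided), once for each pair against the Ck19-derived libraries. The test was also tried on simulated data, with levels and spread taken from the fit of the organoid pairs. Shares of a library were compared by a two-sided exact permutation test. Copies were sought by matching 50-base windows of each mitochondrial gene to all annotated transcripts. The planned single fit of all matched groups thus held 2 groups, since the TKO-tagged pair entered only as an alternative.

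The members, the nuclear lists and the marker lists were chosen with earlier results of these data known. Named are all rRNA and protein-coding members, tRNA genes with at least 10 fragments in every library, and of each nuclear list up to 3 called members with the largest change or, with none called, the most abundant. Alternatives were RLE size factors, DESeq2 1.42.0, limma-voom (limma 3.58.1), no count filter, scaling without chromosome MT, library totals alone, other denominators, values per kilobase, a replicate block and leaving out each library.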

Additional observations from a re-analysis of the deposited data

How the results depend on the processing

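Between Sox9-derived and Ck19-derived organoids, the number of mitochondrial genes called was 0 in edgeR and 4 in DESeq2 (mt-Rnr1, mt-Co1, mt-Co2 and mt-Tp, all lower), from 0 to 1 with a library left out (mt-Tp without Sox9-derived replicate 1), and 13 with the TKO-tagged columns, which also gave 36 calls among nuclear subunits against 0. The 13 and 36 calls come from other libraries, not from another processing of the Sox9-derived ones. The markers of those TKO-tagged libraries go against a duct-like culture, as given above. These calls thus do not show how the organoid result depends on the processing. The difference in mitochondrial share between the organoid pairs reversed to 0.00429 points of all fragments and to 0.0108 points over low-copy genes. Between the TKO-tagged and Ck19-derived libraries the difference was 1.43 points. The difference in complex I share reversed over low-copy genes, where complex IV drops out by construction. It was then −5.08 points between the organoid pairs and −6.51 points between TKO-tagged and Ck19-derived libraries. The rRNA share ran from −5.67 to 2.29 points with a library left out. Single genes that reversed with a library left out ran from −0.0642 to 0.22 (mt-Nd1), −0.74 to 0.15 (mt-Atp8), −0.35 to 0.14 (mt-Co3), −0.32 to 0.42 (mt-Nd3), −0.0111 to 0.42 (Sdhd) and −0.0727 to 0.16 (Uqcrc1), all log2 fold changes that were not called.

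Between TKO-tagged and Ck19-derived libraries, mitochondrial calls ran from 0 to 15 and nuclear subunit calls from 0 to 43 with a library left out, the 0 arising without either Ck19-derived library. Nuclear subunit calls came to 7 on library totals and 20 with the replicate block, in fits that called 39.7% and 18.5% of all genes. Under the alternatives run, no direction reversed among the named mitochondrial genes. Nor did any among the up to 3 called genes with the largest change in each nuclear list. Other nuclear genes did reverse from TMM to library totals. Among them were Cox4i1 (0.62 to −0.14), Ssbp1 (0.29 to −0.47) and Hsd17b10 (0.19 to −0.57), which were not called with TMM. Same-numbered libraries deviated together only weakly (correlations of 0.058 and 0.054 over genes). With 2 libraries a group, this cannot tell whether same-numbered samples share an animal, a culture or a batch. The replicate block gave 0 mitochondrial calls for Sox9-derived over Ck19-derived and 9 for TKO-tagged over Ck19-derived. Over all genes the block gave 0 and 3319 calls, against 95 and 5190 without it. Alternatives run on the TKO-tagged fit, the fit without TMM and the low-copy shares were chosen after seeing the data. The cause of these changes was not tested. With 2 libraries a group and 3 fragments as the limit of a 0 count, changes in the tRNAs and in the copied genes are the least well measured.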
